A study of Mus musculus with 1 sample.

Results

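The Rab GTPase genes were taken as the protein-coding genes whose symbol is Rab, a number and at most 1 further letter, so proteins that only bind Rab proteins stayed out. The annotation held 59 such genes on 18 chromosomes. Of these, 43 had at least 1 read with a poly(A) tail, 23 had the 10 reads required for a gene value, and 15 had at least 30 reads with at least 10 in each replicate. The 23 genes carried 1827 of the 1904 Rab reads. Another 20 genes held 77 reads between them, and 16 had none.

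Rab proteins are small GTPases that act as switches of membrane traffic. Bound to GTP and anchored in a membrane by prenyl groups, each marks a class of organelle or vesicle and recruits effectors such as tethers and motor proteins. Exchange factors (GEFs) load GTP, GTPase-activating proteins (GAPs) end the active state, and GDP dissociation inhibitors carry the inactive protein through the cytosol. The poly(A) tail is the run of adenosines added to the 3′ end of an mRNA. Deadenylases such as the Ccr4-Not complex shorten it, and short tails can be extended with uridine.

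Tails were read in wild-type epiblast-like cells (EpiLCs) of the ICR strain, 24 h after mouse embryonic stem cells (ESCs) were moved from the naive state into N2B27 medium with activin A, bFGF and KSR on Matrigel. PAIso-seq copies a whole mRNA with its tail into circular cDNA, which the polymerase reads repeatedly, and each turn counts as 1 pass. The single sample of 1 group held 2 barcoded libraries, numbered here by barcode because the labels do not say which barcode is which replicate. Cnot8 knockout cells, the other arm of the study, were not analysed here, so no values of 2 conditions were compared and no test was run.

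Replicate 1 held 354259 reads of at least 7 passes and replicate 2 held 593361, of which 215119 and 397161 fell on nuclear protein-coding genes. The cells had reads of all 9 EpiLC and general pluripotency markers, from 37 for Fgf5 to 494 for Dnmt3a. Among naive markers, Klf4 had 1 read, Tbx3 had 4 and Prdm14 had none, while Zfp42 had 501, Nr0b1 201 and Esrrb 40. Of the primed or mesendoderm markers, T and Sox17 had no read, Gata6 had 1 and Eomes had 5.

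Rab genes took 604 reads in replicate 1 and 1300 in replicate 2. That is 281 and 327 per 100000 protein-coding reads, 304 ± 32.9 (SD, n = 2). In bulk RNA, fewer cells with a transcript and less of it per cell cannot be told apart. For a gene with no read, 3 reads of the total set the limit of detection at 1.39 per 100000 in replicate 1 and 0.755 in replicate 2. Read numbers are used below as the depth behind a tail value and not to rank genes by expression. Intervals on shares (95%, Wilson) and on medians (95%, exact binomial) cover counting error only, and not the spread between replicates or genes. The reads carried no molecular identifiers, so any copies of 1 molecule left in the data count as separate reads and would make these intervals too narrow.

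Short tails of well-read Rab genes are shown first, because they show the bases that the shares below count. They come from the genes with at least 30 reads, were at most 30 nt long and ended in T, which stands for U in the RNA. The non-A bases are in capitals. For each gene shown, 1 such molecule was chosen, that with most passes.
Rab1a, 20 nt, replicate 2, 402 passes: aaaaaaaaaaaaaaaaaaaT
Rab11b, 25 nt, replicate 1, 213 passes: aaaaaaaaaaaaaaaaaaaaaaaTT
Rab7, 27 nt, replicate 2, 135 passes: aaaaaaaaaaaaaaaaaaaaaaaaTTT
Rab5a, 17 nt, replicate 2, 108 passes: aaaaaGCaaaaaaaaaT
Rab2a, 26 nt, replicate 2, 40 passes: aaaaaaaaaaaaaaaaaaaaaaaaTT
Rab8a, 21 nt, replicate 1, 39 passes: aaaaaaaaaaaaaaaaaaaaT
Rab23, 14 nt, replicate 2, 38 passes: aaaaaaaaaaaaaT
In Rab1a, Rab8a and Rab23 a single T closed an otherwise pure A tail, Rab11b and Rab2a ended in TT and Rab7 in TTT. The Rab5a molecule also held GC inside, which is described further below. Tails with a non-A base inside are shown for a pair of genes. They were not picked by passes alone, as a Rab14 tail with 76 passes is not shown.
Rab35, 25 nt, replicate 2, 127 passes: aaaaaaTaaaaaaaaaaaaaaaaaa
Rab10, 22 nt, replicate 1, 28 passes: aaaaaaaaCaaaaaaaaaaaaa

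Gene tail lengths of the Rab family lay close to those of protein-coding genes as a whole. The tail of a gene is the geometric mean over its reads. The median over the 23 Rab genes was 76.0 nt, from 39.7 nt for Rab23 to 101 nt for Rab2b, with quartiles of 67.8 and 91.8 nt. Over the 6754 protein-coding genes with at least 10 reads the median was 75.5 nt, with quartiles of 62.1 and 87.4 nt. Below 75 nt lay 9 of the 23 Rab genes (39.1%), against 49.0% of the protein-coding genes.

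The replicates placed the family on opposite sides of the background. In replicate 1 the 16 Rab genes with 10 reads had a median of 75.3 nt, beside 77.1 nt for protein-coding genes. In replicate 2 the 19 Rab genes had 76.2 nt, beside 75.8 nt. The difference of the medians was -1.85 nt in the first, 0.401 nt in the other and 0.541 nt pooled. The pooled difference was smaller than the spread between replicates (SD 1.59 nt, n = 2). Its sign and size depended on the filter, with -4.90 nt over the 15 genes with at least 10 reads in each replicate and 3.69 nt without tails under 6 nt. Within the family, 3 genes lay below the lower quartile of protein-coding genes, 7 above the upper quartile and 13 between them.

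**Figure D1:**
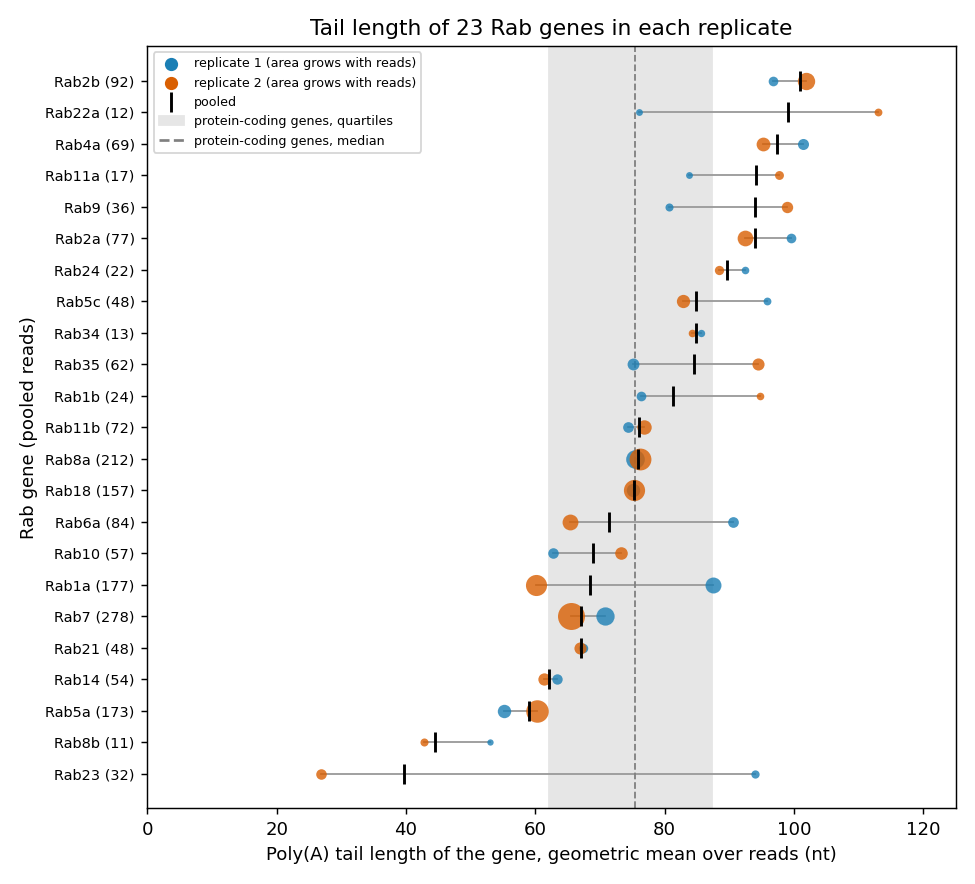
Gene tail length (x axis, nt, geometric mean over reads) of the 23 Rab genes with at least 10 reads, with the pooled reads in brackets. Points are the replicates, with area growing with their reads, black ticks are pooled values, the grey band spans the quartiles of protein-coding genes (62.1 to 87.4 nt) and the dashed line is their median (75.5 nt). Rab18 and Rab8a replicates fall on each other, while those of Rab23 lie at 93.9 and 26.9 nt.

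Among the Rab genes of the endoplasmic reticulum and Golgi, 6 of 11 had a gene value, and their tails had a median of 78.3 nt. The Rab2 pair stood at the long end. Positions are those of the annotated gene in GRCm38 (mm10). Rab2b (chr14:52261759-52279545), which like Rab2a acts between the endoplasmic reticulum and Golgi, measured 96.8 nt over 17 reads in replicate 1 and 102 nt over 75 reads in replicate 2. The tail of Rab2a (chr4:8535644-8607778) was 99.5 nt (17 reads) and 92.4 nt (60 reads). Both were thus above 90 nt in each replicate. Over 90 nt were 66.3% of Rab2b tails (56.2 to 75.1%) and 57.1% of Rab2a tails (46.0 to 67.6%). Rab2b shares 195 exon bases with Tox4 on the other strand, and Tox4 had 62 reads.

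Rab18, which works at the endoplasmic reticulum and lipid droplets, had nearly equal tails of 75.1 nt (41 reads) and 75.3 nt (116 reads). Its median read was longer, at 97 nt (82 to 108). Of its 157 tails, 4 were 5 nt or shorter, and without them its geometric mean was 83.9 nt.

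Rab1a and Rab6a differed most between replicates in this group. Rab1a (chr11:20201432-20226856), needed for transport from the endoplasmic reticulum to the Golgi, had 87.5 nt in replicate 1 (62 reads) and 60.1 nt in replicate 2 (115 reads). Its 4 tails of 1 to 5 nt were all in replicate 2, where leaving them out gave 69.6 nt. Median reads of 105 nt (75 to 117) and 71 nt (63 to 83) kept the same order, and the intervals overlap. Rab6a (chr7:100607410-100641268), a Golgi Rab, had 90.5 nt (23 reads) and 65.3 nt (61 reads), or 74.4 nt in replicate 2 without its 2 shortest tails. It shares 708 exon bases with Mrpl48 on the other strand. Rab1b had 24 reads with a pooled tail of 81.3 nt and a median of 87.5 nt (70 to 128).

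Of the early endosome genes, 4 of 6 had a gene value, from 59.0 to 99.0 nt. Rab5a (chr17:53479234-53507680), which drives fusion of early endosomes, had short tails in both replicates, 55.2 nt (41 reads) and 60.2 nt (132 reads). Only 34.7% of its reads were over 90 nt (28.0 to 42.0%), against 50.1% of all protein-coding reads, and its median was 62 nt (51 to 76). Of its 173 tails, 1 was 5 nt or shorter, and without it the value of Rab5a was 60.4 nt.

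Rab21 (chr10:115287084-115315594), an endosomal Rab linked to integrin uptake, had 67.3 nt (16 reads) and 66.9 nt (32 reads). The median reads were further apart, at 71.5 nt (40 to 99) and 97.5 nt (42 to 116), with overlapping intervals. Of its 48 tails, 2 were 5 nt or shorter, both in replicate 2, and without them that replicate gave 80.8 nt. Rab5c had a pooled tail of 84.9 nt with a median of 92 nt (63 to 123; 48 reads). Rab22a, which sorts cargo from early endosomes, had 99.0 nt with a median of 115 nt (66 to 143; 12 reads).

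Recycling endosome genes had 5 of 9 members with a gene value and a median of 84.5 nt. Rab4a (chr8:123805985-123835287), the Rab of rapid recycling to the surface, was the long-tailed member with 101 nt (25 reads) and 95.2 nt (44 reads). In it 69.6% of reads passed 90 nt (57.9 to 79.2%), the highest share among the 15 genes with at least 10 reads in each replicate, and 1 of its 69 tails was under 31 nt.

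The other recycling genes spread over a wide range. Rab11b (chr17:33742484-33760530), of the slow recycling route, had 74.4 nt (23 reads) and 76.8 nt (49 reads). For Rab14 (chr2:35180205-35201120), which acts between the Golgi and endosomes, 63.4 nt (21 reads) and 61.4 nt (33 reads) were both below the protein-coding median. Rab35 (chr5:115631908-115647736), which acts in recycling and cytokinesis, had 75.1 nt (30 reads) and 94.4 nt (32 reads). The share of Rab35 reads over 90 nt was 36.7% in replicate 1 and 65.6% in replicate 2, so its place in the family depended on the replicate. Rab11a had a pooled tail of 94.2 nt, but a median read of 78 nt (70 to 148; 17 reads).

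For late endosomes and lysosomes, 3 of 10 genes had a value. Rab7 (chr6:87999106-88045270), the Rab of late endosomes on their way to the lysosome, had the most reads of the family and tails of 70.8 nt (84 reads) and 65.6 nt (194 reads). Its 6 tails of 1 to 5 nt were all in replicate 2, and without them that replicate gave 73.4 nt. Over both replicates the median was 79 nt (73 to 85). Rab9, which returns receptors from late endosomes to the Golgi, had a pooled tail of 94.0 nt with a median of 97 nt (75 to 127; 36 reads). Rab34 had 84.8 nt with a median of 99 nt (58 to 117; 13 reads).

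The secretory genes had 3 of 10 members with a value. Rab8a (chr8:72161200-72183904), which carries vesicles to the plasma membrane and cilium, had 75.4 nt (88 reads) and 76.2 nt (124 reads). Rab10 (chr12:3247428-3309969), a close relative in exocytosis, had 62.7 nt (22 reads) and 73.2 nt (35 reads), with none of its 57 tails at 5 nt or shorter. Rab10 shares 143 exon bases with the antisense gene Rab10os, which had 20 reads. Rab8b had 11 reads, 2 of them with tails of 1 to 5 nt, which gave a geometric mean of 44.4 nt beside a median of 105 nt (1 to 161). Without tails under 6 nt the value of Rab8b was 103 nt, so at this depth its place in the family was not resolved.

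Rab23 (chr1:33719887-33742564), a negative regulator of hedgehog signalling, had the shortest pooled tail and the widest gap between replicates. Replicate 1 gave 93.9 nt over 10 reads that ran from 22 to 202 nt, with a median of 120.5 nt (33 to 183). Replicate 2 gave 26.9 nt over 22 reads that ran from 1 to 172 nt, with a median of 28.5 nt (19 to 56). The intervals overlap, and tails under 31 nt were 1 of 10 in replicate 1 and 11 of 22 in replicate 2. Rab24, which is associated with autophagy, had 89.7 nt with a median of 103 nt (58 to 148; 22 reads). It shares 1258 exon bases with Prelid1 on the other strand, and Prelid1 had 220 reads.

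**Figure D2:**
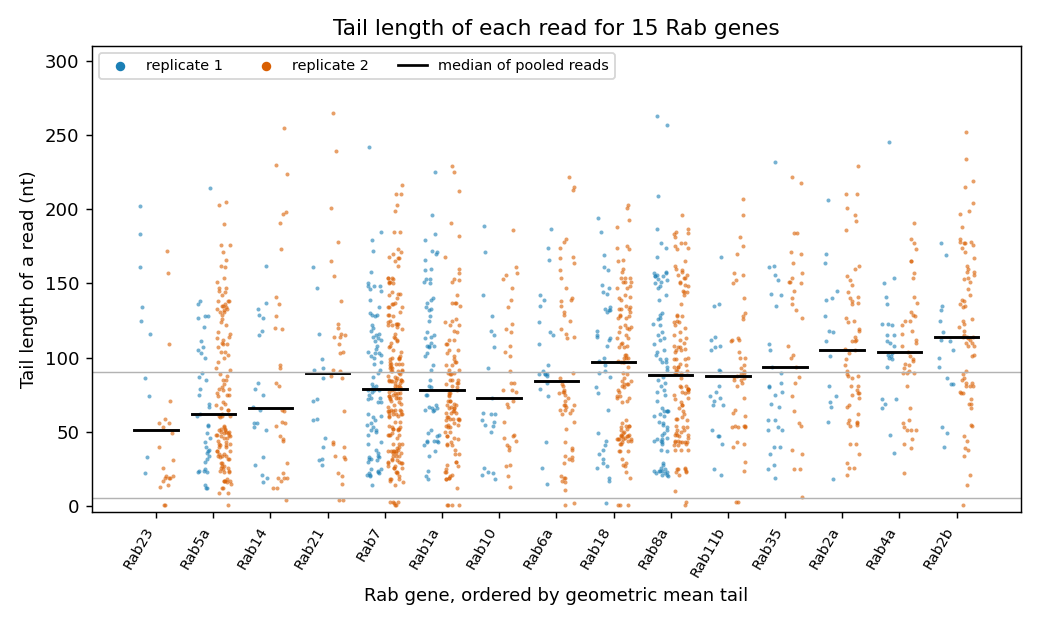
Tail length of every read (y axis, nt) for the 15 Rab genes with at least 10 reads in each replicate, ordered by geometric mean, with replicate 1 at the left and replicate 2 at the right of each gene. Black bars are medians of pooled reads, and grey lines stand just above 5 and 90 nt. Nearly all points below the lower line belong to replicate 2, and every gene has reads under 50 nt and over 150 nt.

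The gene values agreed only in part between replicates. Of the 15 genes with at least 10 reads in each, 8 were longer in replicate 1 and 7 in replicate 2. Over the 3652 protein-coding genes with the same minima, 52.6% were longer in replicate 1, so the split of the Rab genes was near the background. The median absolute difference was 5.20 nt over the 15 Rab genes, beside 10.4 nt over the 3652, whose read numbers were not matched. Over the 15 genes the Spearman correlation was 0.400 (0.525 over the 3652) and the Pearson correlation of log2 tails 0.101, given as a description, because the values of a gene share its sequence and the libraries their preparation. Above the protein-coding median in both replicates lay 3 genes, Rab2a, Rab2b and Rab4a. Below it in both lay 6, Rab5a, Rab14, Rab21, Rab7, Rab10 and Rab18. The other 6, Rab23, Rab1a, Rab6a, Rab8a, Rab11b and Rab35, changed sides. Some of these placements were narrow. Rab8a had 75.4 and 76.2 nt, beside protein-coding medians of 77.1 nt in replicate 1 and 75.8 nt in replicate 2. Rab18, at 75.1 and 75.3 nt, lay close below the median of replicate 2. How many protein-coding genes changed sides was not counted, so these numbers are not read as particular to Rab genes.

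Close paralogs were set side by side where both had 10 reads. Rab5c was longer than Rab5a in both replicates, by 40.6 nt and 22.7 nt, and by 25.9 nt pooled. Rab5c rested on 8 reads in replicate 1, and the intervals of the medians, 51 to 76 nt for Rab5a and 63 to 123 nt for Rab5c, overlap. The third member of that set, Rab5b, had 2 reads.

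The other pairs did not separate clearly. In replicates 1 and 2, Rab2b minus Rab2a was -2.76 and 9.48 nt and Rab1b minus Rab1a was -11.2 and 34.7 nt, so the sign turned in each pair. Rab1b rested on 7 reads in replicate 2, and Rab11a, which follows, on 4 in replicate 1. Rab11b was shorter than Rab11a by geometric mean in both replicates (-9.42 and -20.9 nt), but its median read was 9.5 nt longer. Rab8b was likewise 31.4 nt shorter than Rab8a by geometric mean and 16.5 nt longer by median. In Rab4, Rab6, Rab7 and Rab9, 1 member held all or nearly all reads: Rab4b, Rab7b and Rab9b had none and Rab6b had 1.

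Read by read, Rab tails lay close to those of protein-coding transcripts. The median Rab read was 88.5 nt long in the first library, 86.0 nt in the other and 86.5 nt pooled (83 to 90), beside 91 nt in each replicate of the background. Over 90 nt were 48.3% of Rab reads in replicate 1 and 47.1% in replicate 2, 47.7 ± 0.896% (SD, n = 2). The background had 50.1% in both. The interval of replicate 1, 44.4 to 52.3%, held that value, while those of replicate 2, 44.4 to 49.8%, and of both together, 45.2 to 49.7%, lay below it. Reads of the same gene are not independent, so these intervals are too narrow for the family as a whole.

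The share over 90 nt varied with the genes counted, and was 49.4% as a mean over the 23 genes. Rab7, Rab8a, Rab1a, Rab5a and Rab18 made up 52.4% of Rab reads, and the remaining 907 reads had 51.9% over 90 nt (48.7 to 55.2%) with a median of 93 nt (89 to 100). These 5 genes were picked by their read number. They were not alike, with 34.7% in Rab5a and 52.9% in Rab18, and the other genes ran as low as 28.1% in Rab23. The longest Rab tail was 275 nt.

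**Figure D3:**
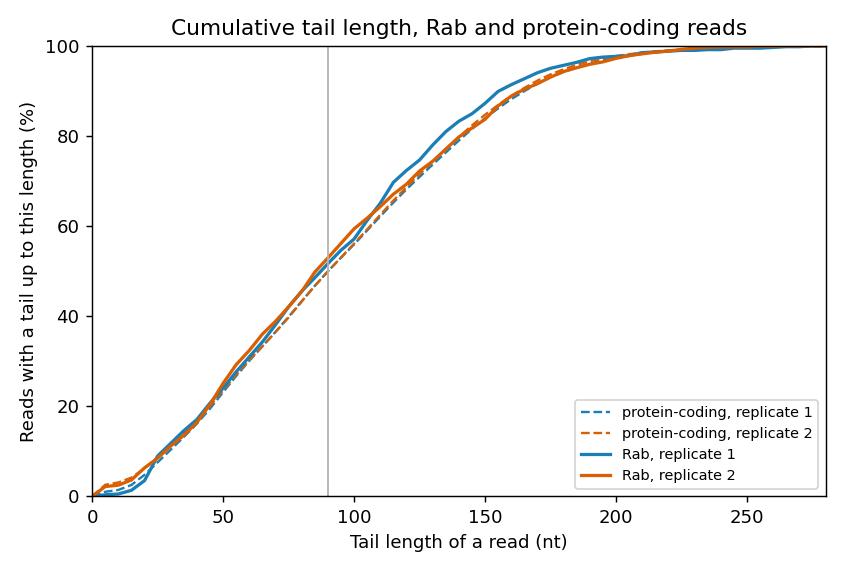
Percent of reads (y axis) with a tail up to the length on the x axis (nt), for Rab reads (solid) and protein-coding reads (dashed) in each replicate. The grey line marks 90 nt, where the Rab curves stand above the dashed curves, as 48.3 and 47.1% of Rab reads and 50.1% of protein-coding reads were longer.

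Very short tails were rare and uneven between replicates. Tails of 1 to 5 nt were 2 of 604 Rab reads in replicate 1 (0.331%; 0.0909 to 1.199%) and 28 of 1300 in replicate 2 (2.15%; 1.49 to 3.10%). Protein-coding reads moved the same way, with 0.988% and 2.55%. Tails of a single base numbered 0 and 17 among Rab reads. According to the methods, sequences with too few A bases at their start were filtered out. How these very short tails passed that filter was not examined. The geometric mean weighs such tails heavily. Of the 15 genes with reads in each replicate, 10 had tails of 1 to 5 nt only in replicate 2, and 6 of these, Rab7, Rab1a, Rab6a, Rab14, Rab21 and Rab23, were longer in replicate 1. The other 4, Rab5a, Rab8a, Rab11b and Rab2b, were longer in replicate 2. Over the 3652 protein-coding genes with the same minima, 52.6% were longer in replicate 1. How many of them had such tails only in replicate 2 was not counted. Replicate 2 also held more Rab reads, 1300 against 604, so these counts are not read as particular to Rab genes. The part of the very short tails in the replicate differences was not tested beyond the values without them given above.

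A non-A base was present in 76 Rab tails in replicate 1 (12.6%) and 116 in replicate 2 (8.92%), 10.1% of all (8.81 to 11.5%). The background had 12.4% and 9.77%, so the family differed from it by less than the replicates differed from each other. T was found in 5.78% of Rab tails, C in 3.52% and G in 2.99%. Among genes with at least 30 reads in all and 10 in each replicate, the share ran from 6.25% in Rab21 (2.15 to 16.8%) to 15.6% in Rab23 (6.86 to 31.8%), and these extremes overlap.

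Tails ending in T, as in the molecules printed above, numbered 58 (3.05%; 2.36 to 3.92%), beside 3.27% of protein-coding tails. By number 20 of them were 30 nt or shorter and 38 longer, while the share was highest at 16 to 30 nt. Of the 161 Rab tails of 16 to 30 nt, 18 ended in T (11.2%; 7.19 to 17.0%), beside 13.7% of the background. Without the 14 Rab5a tails described below it was 14 of 157 (8.92%; 5.39 to 14.4%), and over all lengths 2.65% (2.01 to 3.47%). None of the 30 tails of 1 to 5 nt ended in T. The share was 3.32% at 31 to 60 nt and at 61 to 90 nt. None of the 50 tails over 200 nt ended in T (interval up to 7.13%). At 6 to 15 nt, 2 of 25 ended in T (8.0%; 2.22 to 24.97%), where the background had 25.5%. By gene, Rab5a, Rab7 and Rab1a had 8 such tails each, Rab18 and Rab8a 6, Rab2b 5 and Rab23 4 of 32. All 8 of Rab5a were among those 14 tails, and 4 of them were the identical 17-nt tail printed above.

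**Figure D4:**
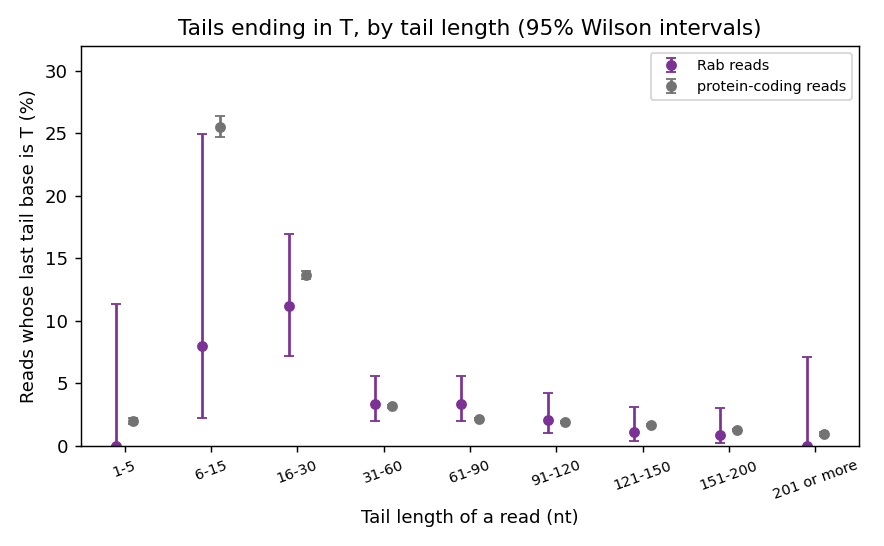
Percent of reads whose last tail base is T (y axis) by class of tail length (x axis, nt), pooled over replicates, for Rab reads and protein-coding reads, with 95% Wilson intervals. Rab tails of 16 to 30 nt reach 11.2%, and tails over 200 nt hold none in 50 reads.

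Of the 50 Rab tails over 200 nt, 11 held a non-A base (22.0%; 12.8 to 35.2%). They were 4 of 14 in replicate 1 (11.7 to 54.6%) and 7 of 36 in replicate 2 (9.75 to 35.0%). Each of these intervals held the background of its replicate, 11.8% and 11.3%. The class is 1 of several length classes, and no test was run. The background had 11.5% in this class and 9.98% in the class below it, from over 150 to 200 nt, where Rab tails had 7.53% (4.82 to 11.6%).

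Most Rab5a tails with a non-A base began with letters of the annotated end of the gene. Of its 16 tails with a non-A base, 14 began with the same 7 bases, 5 in replicate 1 and 9 in replicate 2 (8.09% of Rab5a reads; 4.88 to 13.1%). These 7 letters stand in the genome at chr17:53507672-53507678 on the + strand (GRCm38), 2 bases before the annotated end of Rab5a at 53507680. They are in capitals in the last 30 bases of its annotated 3′ UTR, chr17:53507651-53507680, printed because the tail calls begin there.
Rab5a end: caggttggaataaagtgatgtAAAAAGCaa
Rab5a tail: aaaaaGCaaaaaaaaaT
The poly(A) signal AATAAA stands before these 7 bases. According to the methods, bases left unaligned past the 3′ end of a read were taken as its tail and adjoining A bases were added, and at the end of Rab5a the letters after the signal are A rich. Without the 7 bases the Rab5a tail was 57.8 nt in place of 59.0 nt. Each of the 14 tails also held a non-A base after them, so 16 of the 173 tails still held one with the 7 bases left out (9.25%; 5.77 to 14.5%). The share of Rab tails with a non-A base was 9.42% without these 14 molecules (8.18 to 10.8%). The origin of the bases in the molecules was not tested.

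Few other Rab tails did so. A first run of non-A bases that ended at base 7 or later and before the last base was present in 108 Rab tails, and the letters up to its end occurred in the genome within 20 nt of an annotated end of the gene in 15, the 14 of Rab5a and 1 of Rab14. The 17-nt Rab5a tail was found in 4 reads of replicate 2 and a 47-nt one in 2 reads. Identical tails with a non-A base made up 10 of the 192 in Rab genes (5.21%) and 4.70% in protein-coding genes. Repetitive reads were removed according to the methods, which do not say by what rule. Copies of 1 molecule made in amplification and equal tails of separate molecules cannot be told apart.

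The poly(A) signal and transcript length of Rab genes were taken from the annotation. In the last 50 nt of the transcript with the longest 3′ UTR, AATAAA stood in 14 of 23 genes (60.9%), beside 61.9% of protein-coding genes, and ATTAAA without AATAAA in 5 (21.7%, beside 14.2%), searched on the transcribed strand. Rab18, Rab2a, Rab10 and Rab21 held neither in this window (17.4%, beside 23.9%). These are letters in annotated ends and not sites shown to be used. The longest annotated 3′ UTR had a median of 1951 nt, from 265 nt in Rab24 to 6492 nt in Rab22a, beside 1323.5 nt in protein-coding genes.

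Rab genes with longer transcripts tended to have shorter tails, as protein-coding genes did. The Spearman correlation of gene tail with longest annotated transcript was -0.410 over the 23 genes and -0.358 over the 6754. It was -0.243 with tails of at least 6 nt only and -0.279 over the 15 genes with reads in each replicate. With the longest 3′ UTR it was -0.379 (background -0.225). That value fell to -0.196 with tails of at least 6 nt only and to -0.207 over the 15 genes. These are descriptions across genes measured in the same libraries, and the transcript each read came from was not used. Rab4a (1419 nt, 97.4 nt tail) and Rab23 (4398 nt, 39.7 nt tail) lay along this order, while Rab22a (7155 nt, 99.0 nt tail, 12 reads) lay away from it.

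**Figure D5:**
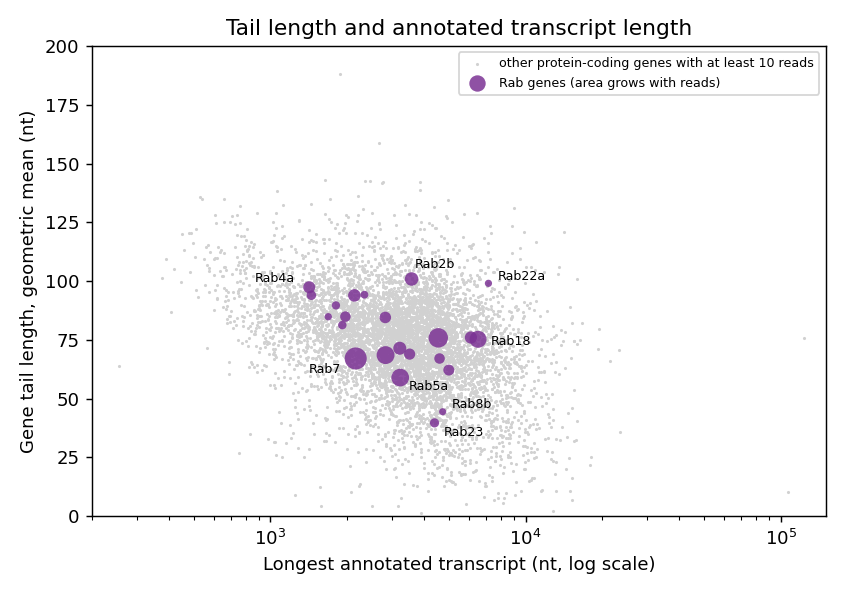
Gene tail length (y axis, nt, geometric mean) against the longest annotated transcript (x axis, nt, log scale) for the 23 Rab genes (purple, area growing with reads) and the other protein-coding genes with at least 10 reads (grey). Rab genes spread through the grey cloud, with a Spearman correlation of -0.410 over the Rab genes and -0.358 over the protein-coding genes.

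The genes that act on Rab proteins or with them were described by the same measures. Prenylation and recycling factors had 7 of 8 genes with a value, a median gene tail of 76.2 nt and 2 genes below 75 nt. Over all protein-coding genes, 49.0% lay below 75 nt, which is the background for this count and those that follow. Their member with most reads, Gdi2, the inhibitor that extracts Rab proteins from membranes, had 79.0 nt in replicate 1 and 69.9 nt in replicate 2 (1251 reads). Of the GEF genes, 21 of 47 had a value, with a median of 70.5 nt and 13 below 75 nt. Of the GAP genes, 15 of 40 had a value, with a median of 71.4 nt and 8 below 75 nt. The replicate medians were 64.9 and 77.5 nt for GEF genes and 73.0 and 70.3 nt for GAP genes.

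The pooled median of the effector genes was the lowest of these lists, but in replicate 1 that of the GEF genes was lower. Of the effector genes, 23 of 51 had a value, with a median of 64.0 nt and 16 below 75 nt (background 49.0%). The replicate medians of effectors, 69.7 and 64.4 nt over 9 and 17 genes, were both below the protein-coding medians. Uso1, a tether of Golgi-bound vesicles, had 55.3 nt and 67.7 nt (190 reads). Among GEF genes, Ankrd27 had 55.8 nt and 90.3 nt (66 reads), and Trappc13, a subunit of a TRAPP complex, had 64.9 nt and 74.9 nt (65 reads).

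The Arf, Arl and Ras small GTPases had medians above the Rab genes. The Arf and Arl genes had 19 genes with a value, a median of 82.4 nt and 6 below 75 nt. The replicates gave 84.5 and 79.5 nt. Among them Arf1 had 96.5 nt and 83.7 nt (128 reads) and Arl1 70.8 nt and 77.7 nt (145 reads). The median of 13 Ras genes was 81.3 nt, with 3 below 75 nt. The background for these counts is again the 49.0% of protein-coding genes below 75 nt. Among them Ran, of nuclear transport, had 86.4 nt and 82.0 nt (880 reads). No test was run between the families.

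The Rab genes without a gene value were read too rarely to place. Rab40c had 9 reads, Rab33b and Rab3d 7, Rab15 and Rab31 6, Rab19 and Rab28 5 and Rab12 4. Rab3a, Rab3b, Rab13, Rab25, Rab29, Rab30 and Rab38 had 3, Rab5b and Rab27a 2, and Rab6b, Rab26 and Rab39 1. No read was found for Rab3c, Rab4b, Rab7b, Rab9b, Rab17, Rab20, Rab27b, Rab32, Rab33a, Rab36, Rab37, Rab39b, Rab40b, Rab42, Rab43 and Rab44. Rab3 genes act in regulated secretion, Rab27a and Rab27b in secretory granules and melanosomes, and Rab17 and Rab25 in epithelia. At this depth the reads do not show that these transcripts were absent. The 4 annotated Rab pseudogenes with a Rab symbol had no read either.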

How the data were processed

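PAIso-seq tail calls of wild-type 24h-EpiLCs were used as deposited. The authors made consensus reads with ccs, split them by barcode, mapped them to mm10 with minimap2 2.17, took the unaligned 3′ bases with adjoining A bases as the tail, left out reads without one and assigned genes with featureCounts 2.0.1. The deposited values are counts per read, unnormalized: passes, and A, T, C, G and non-A bases. Whether counting used strand is not given in the sources used here, so genes that overlap on the other strand are uncertain. Depth was 354259 and 593361 reads of at least 7 passes. No count was modelled.

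Tail length was the A plus non-A count of reads with at least 7 passes. Gene identifiers were matched to GENCODE M21, and gene tails are geometric means over at least 10 reads. Genes were named with both replicates from 30 pooled reads and 10 in each; others from 10 reads have pooled values; listed genes were named as the 2 longest and 2 shortest with 30 reads in each replicate. Features singled out in Rab5a were chosen after their values were seen. The 1 group allowed no test, so values are per replicate, pooled, or mean ± SD (n = 2). The boundaries of 75 and 90 nt were taken from the study. Alternatives changed passes, shortest tail, gene summary, read minimum and replicates. The members and lists were chosen with earlier results of these data known. Scripts (scipy 1.17.1 and pandas 2.3.3 under Python 3.11.15) were tested on simulated data.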

Additional observations from a re-analysis of the deposited data

How the results depend on the processing

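The median Rab gene tail of 76.0 nt, and its difference of 0.541 nt from protein-coding genes, depended on how very short tails and thinly read genes were treated. The median was 81.1 nt with no minimum of passes, 84.2 nt with tails of at least 6 nt, 84.4 nt with at least 15 nt, 89.5 nt with medians per gene, 94.7 nt with arithmetic means, 82.9 nt with at least 5 reads, 71.4 nt with at least 10 reads in each replicate (15 genes) and 80.7 nt with only the sequencing wells that gave 1 read. The difference was 5.75 nt with no minimum of passes, 3.69 nt with tails of at least 6 nt, 7.37 nt with at least 5 reads and 5.29 nt with wells of 1 read, and its sign turned to -4.90 nt with at least 10 reads in each replicate. Leaving out each replicate in turn gave medians of 75.3 to 76.2 nt and differences of -1.85 to 0.401 nt, the negative one without replicate 2. Against all nuclear genes it was -0.362 nt. The cause was not tested. The share over 90 nt was 49.4% with each gene weighted equally, and the non-A share was 7.30% without the first and last base. The share of tails of 1 to 5 nt was 1.58% pooled, 0.331% without replicate 2 and 2.15% without replicate 1. It was 2.15% with genes weighted equally.

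Of the 15 genes with values in each replicate, 13 moved by more than their replicate SD with arithmetic means, 9 with medians, 8 with tails of at least 15 nt and 7 with at least 6 nt, all upwards. Without replicate 2, 6 moved, 3 of them upwards, and 3 moved down with at least 15 passes. Leaving out the 2 genes that share exon bases on the same strand, and the 14 Rab5a tails, were chosen after seeing the data. No paired analysis was possible because the single sample made up the 1 group. Depth limits the gene values, as 8 of the 23 had under 10 reads in a replicate.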
